A study of Homo sapiens with 4 samples.

Results

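The genes described here are those of the S100A calcium-binding proteins and of the cornified envelope. They were taken by symbol, as all genes beginning with S100A, SPRR or LCE, with the genes of involucrin, loricrin, the S100-fused proteins, suprabasin, dermokine and cornifelin, the transglutaminases TGM1, TGM3 and TGM5 and the peptidylarginine deiminases PADI1 to PADI4. The rule found 61 of the 18323 genes with a probe set of a single symbol, namely 17 S100A, 10 SPRR, 17 LCE, 7 transglutaminase and deiminase genes and 10 others. RNA came from 2 nasopharyngeal carcinoma cell lines, with 1 array for each of 4 groups. These were HK1EBV given CAPE (caffeic acid phenethyl ester) at 110 µM, HK1EBV with dimethyl sulfoxide (DMSO) at 0.1%, HK1 with CAPE at 110 µM and HK1 with DMSO at 0.1%, all for 24 h in medium with serum. CAPE is a phenolic ester of bee propolis, and DMSO is its usual solvent. The EBV of HK1EBV is read here as Epstein-Barr virus from the name alone. The labels describe neither the infection nor the number of cultures behind an array.

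As squamous cells reach the end of their differentiation they replace their membrane by a cornified envelope. Transglutaminases crosslink involucrin, loricrin, small proline-rich proteins (SPRR) and late cornified envelope proteins (LCE) into it, while peptidylarginine deiminases citrullinate filament-associated proteins such as filaggrin and trichohyalin. Most of these genes lie side by side with the S100A genes in the epidermal differentiation complex on chromosome 1. S100 proteins bind calcium and partner proteins, and several, such as the S100A8 and S100A9 pair, are secreted by stressed epithelium and by myeloid cells.

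The deposited values were made by robust multi-array average (RMA) and are read here as log2, a base that the sources do not state. Their offset is unknown, so values are compared between arrays and not between genes. The array medians lay between 2.23 and 2.27. No detection call was used. In its place 344 probe sets of olfactory receptors, taken as silent in these cells, gave a bound at their 95th percentile, 1.495, and a gene whose highest value on the 4 arrays was below it is called near background. Groups were not replicated, and comparisons made inside a single line or treatment therefore carry no check of their spread. The gene-wise test takes the lines as repeats of the CAPE difference and the treatments as repeats of the line difference, with 1 residual degree of freedom, and its p-values measure only the spread between these arrays, which may be technical. Epithelial markers were above the bound on all arrays, 10 of 10 measured, among them EPCAM, CDH1, KRT5 and KRT8. Of 7 fibroblast, 6 endothelial and 3 melanocyte markers measured, 4, 2 and 0 were above it, the fibroblast gene COL1A1 at 3.42 to 3.64 among them. A value above the bound therefore does not by itself show that a gene is expressed.

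Of the 61 genes, 44 were above the bound on at least 1 array and 17 stayed below it. The 17 included genes of major envelope proteins. Involucrin (IVL), an early envelope protein, stood at 1.08 with CAPE and 1.15 with DMSO in HK1EBV, and 1.10 with CAPE and 1.28 with DMSO in HK1. Loricrin (LORICRIN), the main protein of the epidermal envelope, stood at 0.94 with CAPE and 1.01 with DMSO in HK1EBV, and 1.15 with CAPE and 1.01 with DMSO in HK1. Both were thus near background in every group. FLG2, RPTN, the epidermal and hair transglutaminase gene TGM3, PADI1, PADI4, S100A7A, S100A7L2, S100A12, SPRR2A, SPRR2B, SPRR2D, SPRR2E, LCE1B, LCE2C and LCE3C made up the rest. Their values ran from 0.47 to 1.49, and differences between arrays from -0.51 to 0.90, the highest being that of S100A12 in HK1EBV against HK1 with DMSO. No gene among the 17 differed by 2-fold between any pair of groups. LCE3C, PADI1 and S100A12 came closest to the bound from below, with highest values of 1.49, 1.45 and 1.36, and LCE4A, S100A7 and TGM5 from above, with 1.52, 1.63 and 1.65. A probe set shared by HRNR and RPTN was not used. Many SPRR2, LCE and S100A7 genes are close copies of others in their group. Nothing is known here of how the probe sets tell such copies apart, so the value of a single copy is uncertain.

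**Figure D1:**
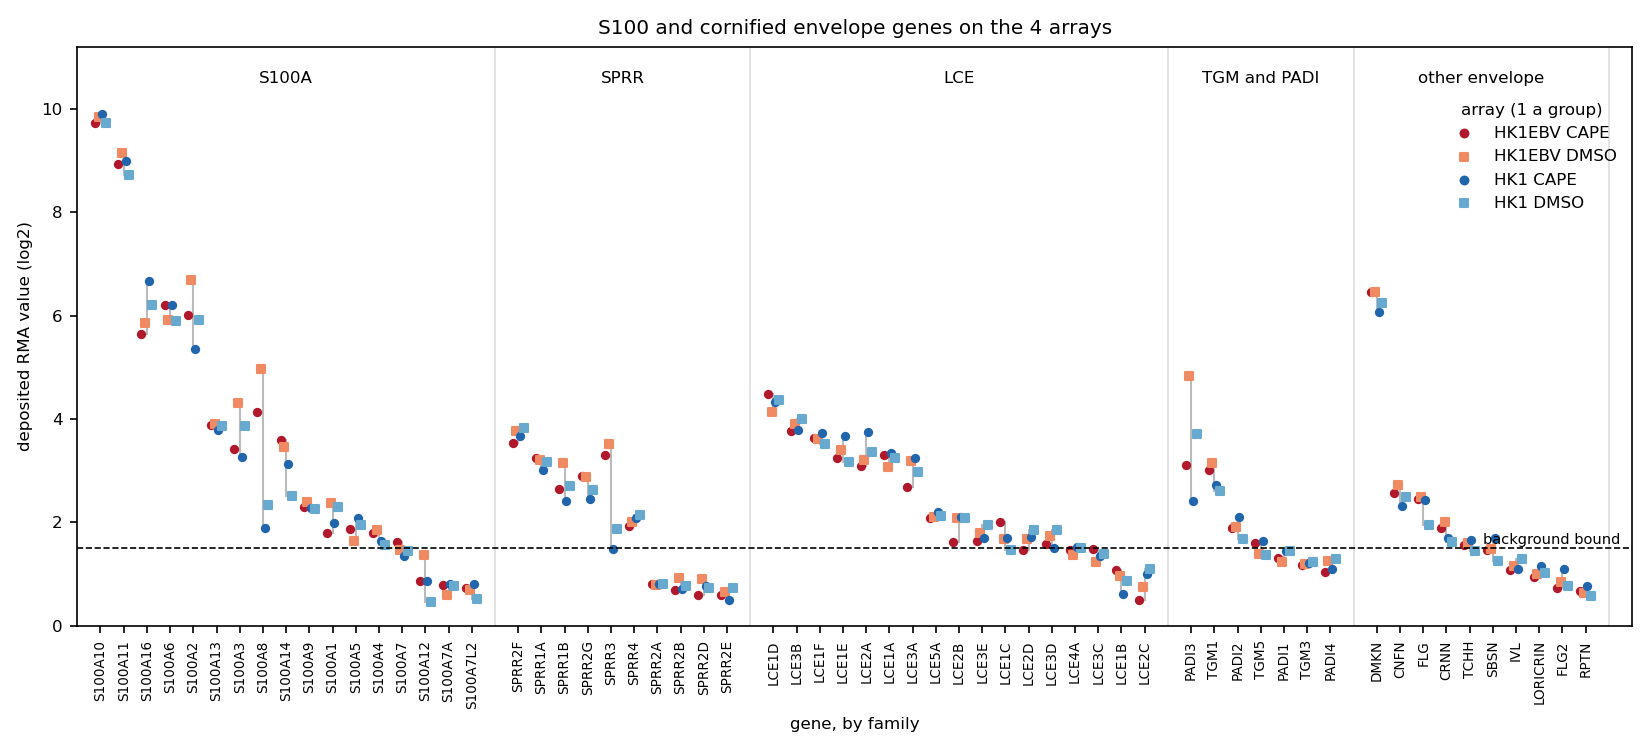
Deposited RMA values (log2) of the 61 genes on the 4 arrays, grouped by family and ordered by mean within a family, with 1 point for each array, a grey line over their range and the background bound of 1.495 dashed. S100A8, SPRR3 and PADI3 have the widest ranges, while the SPRR2A, SPRR2B, SPRR2D and SPRR2E points lie together below the bound.

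The first comparison asked how these genes differed between HK1EBV and HK1 over both treatments. S100A8, S100A2 and SPRR3 rose in HK1EBV (limma with Benjamini-Hochberg adjustment over 15194 genes, adjusted p at most 0.05), and no gene of the set fell. S100A8 encodes a subunit of calprotectin, the calcium- and metal-binding pair with S100A9. SPRR3 encodes a small proline-rich protein typical of moist squamous epithelium such as that of the esophagus. S100A2 encodes a nuclear S100 protein of basal squamous cells.

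S100A8 stood at 4.14 with CAPE and 4.96 with DMSO in HK1EBV, and 1.88 with CAPE and 2.33 with DMSO in HK1. In bulk RNA, more cells with a transcript and more of it per cell cannot be told apart. Both HK1EBV arrays lay far above both HK1 arrays. The difference was 2.26 with CAPE and 2.64 with DMSO, with a mean of 2.45 ± 0.14 (SE from limma, n = 2 treatments), or 5.45-fold (limma adjusted p = 0.0164, range over alternatives 7.51e-06 to 0.171). Its value in HK1 with CAPE was above the background bound but below the median of that array, 2.27, so the fold is uncertain. SPRR3 stood at 3.30 with CAPE and 3.51 with DMSO in HK1EBV, and 1.49 with CAPE and 1.86 with DMSO in HK1. It too did not overlap between the lines, but 1 of the 2 HK1 arrays, that with CAPE, was just below the background bound, so no fold is given. Its mean difference was 1.73 ± 0.12 (SE from limma, n = 2 treatments) in the values as deposited (limma adjusted p = 0.0203, range over alternatives 3.51e-05 to 0.143). S100A2 stood at 6.02 with CAPE and 6.69 with DMSO in HK1EBV, and 5.35 with CAPE and 5.91 with DMSO in HK1. The 2 HK1EBV arrays were above the 2 HK1 arrays, by 0.67 with CAPE and 0.78 with DMSO. Its mean difference of 0.73 ± 0.11 (SE from limma, n = 2 treatments) only just passed (limma adjusted p = 0.0495, range over alternatives 0.00522 to 0.434).

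Of 50 genes of the set tested, 3 (6%) were called higher, against 1.32% of all genes tested, and 0 lower, against 1.58%. At an unadjusted p under 0.05, 9 were higher and 1 lower, against 12.4% and 10.6% of all genes. With dim probe sets kept in, or with treatment left out of the model, none (0) of the 3 passed. Leaving out the 57 genes whose residual was 0 gave 5 higher and 1 lower, against 6.26% and 5.34% of all genes, adding PADI3, S100A14 and S100A16. That fit borrows more strength across genes, with 9.89 against 3.90 prior degrees of freedom, and on simulated data such a fit made more false calls than its threshold allows. The median difference of the 50 genes was -0.025 with CAPE and 0.062 with DMSO, beside -0.0048 and 0.014 for all genes. Both HK1EBV arrays lay above both HK1 arrays for 15 genes (30%) and below for 10 (20%), against 21.4% and 20.9% of all genes.

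The promoters of these genes were read to see which short motifs they hold. Sequences are from RefSeq, build GRCh38.p14, from 250 bases before to 50 after the start site. They matched 55 of the 61 genes. S100A8 and S100A9 are shown as a pair of which S100A8 alone passed the line test, SPRR3 and S100A2 as genes that rose in HK1EBV, S100A3 for its lower values with CAPE, given further on, and LCE3C as a gene near background. PADI3, which differed most with CAPE, had no matching sequence, so its promoter could not be read. The choice of S100A9 was made after its values were seen. Capitals mark TGANTCA, the motif of AP-1 factors, and TATAAA, the TATA box.
S100A8 promoter: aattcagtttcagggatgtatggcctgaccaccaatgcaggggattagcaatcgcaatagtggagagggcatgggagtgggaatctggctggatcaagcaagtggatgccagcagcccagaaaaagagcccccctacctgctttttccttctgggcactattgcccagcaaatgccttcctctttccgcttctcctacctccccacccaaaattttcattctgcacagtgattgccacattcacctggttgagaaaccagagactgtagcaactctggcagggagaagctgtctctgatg
S100A9 promoter: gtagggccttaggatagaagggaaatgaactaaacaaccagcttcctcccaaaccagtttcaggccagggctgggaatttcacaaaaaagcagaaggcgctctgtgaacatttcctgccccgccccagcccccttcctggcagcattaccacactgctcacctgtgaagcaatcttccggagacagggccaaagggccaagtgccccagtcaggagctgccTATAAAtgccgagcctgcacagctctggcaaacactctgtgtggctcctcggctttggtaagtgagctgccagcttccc
SPRR3 promoter: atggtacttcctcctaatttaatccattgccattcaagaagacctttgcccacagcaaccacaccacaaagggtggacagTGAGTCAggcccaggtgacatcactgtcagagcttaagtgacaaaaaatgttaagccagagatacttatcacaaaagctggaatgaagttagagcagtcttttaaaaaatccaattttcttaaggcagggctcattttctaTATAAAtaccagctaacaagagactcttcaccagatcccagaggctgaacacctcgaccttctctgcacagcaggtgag
S100A2 promoter: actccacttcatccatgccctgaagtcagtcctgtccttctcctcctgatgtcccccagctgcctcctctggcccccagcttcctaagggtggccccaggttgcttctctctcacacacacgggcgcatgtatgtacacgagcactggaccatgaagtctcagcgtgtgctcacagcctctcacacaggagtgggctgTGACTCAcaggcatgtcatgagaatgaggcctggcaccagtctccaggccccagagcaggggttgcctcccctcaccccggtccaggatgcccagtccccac
S100A3 promoter: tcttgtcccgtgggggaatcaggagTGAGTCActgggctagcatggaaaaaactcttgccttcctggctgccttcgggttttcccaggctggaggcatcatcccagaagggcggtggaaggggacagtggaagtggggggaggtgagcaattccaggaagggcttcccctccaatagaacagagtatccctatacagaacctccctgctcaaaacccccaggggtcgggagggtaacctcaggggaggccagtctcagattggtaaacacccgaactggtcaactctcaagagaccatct
LCE3C promoter: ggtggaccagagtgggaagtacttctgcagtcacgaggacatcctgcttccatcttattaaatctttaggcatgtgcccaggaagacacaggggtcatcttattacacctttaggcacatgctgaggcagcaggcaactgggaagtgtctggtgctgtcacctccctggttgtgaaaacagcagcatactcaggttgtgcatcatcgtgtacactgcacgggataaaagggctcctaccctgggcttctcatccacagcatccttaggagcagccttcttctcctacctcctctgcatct
They lie at chr1:153391139-153391438 (minus strand) for S100A8, chr1:153357604-153357903 (plus strand) for S100A9, chr1:153001499-153001798 (plus strand) for SPRR3, chr1:153565795-153566094 (minus strand) for S100A2, chr1:153549209-153549508 (minus strand) for S100A3 and chr1:152599984-152600283 (plus strand) for LCE3C.

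In these windows SPRR3 holds both motifs, S100A2 and S100A3 the AP-1 motif, S100A9 the TATA box, and S100A8 and LCE3C neither. Over the 55 promoters, on both strands, TGANTCA was found in 18 (32.7%), against 7.71% of 35116 promoters in the RefSeq table. TATAAA was found in 26 (47.3%), against 11.5%. The AP-1 motif was present in 11 of 42 genes above the background bound and in 7 of 13 near background, IVL and LORICRIN among them. GCGTG, the core of aryl hydrocarbon receptor sites, was found in 13 (23.6%) against 36.5%, and TGACNNNGC, the core of antioxidant response elements, which a stretch holding TGANTCA can also match, in 11 (20%) against 13.3%. A wide pattern for NF-κB sites was found in 38 (69.1%) against 58.7%. Matches are letters in a window and not shown to be bound sites, and close copies can share their promoters' letters.

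**Figure D2:**
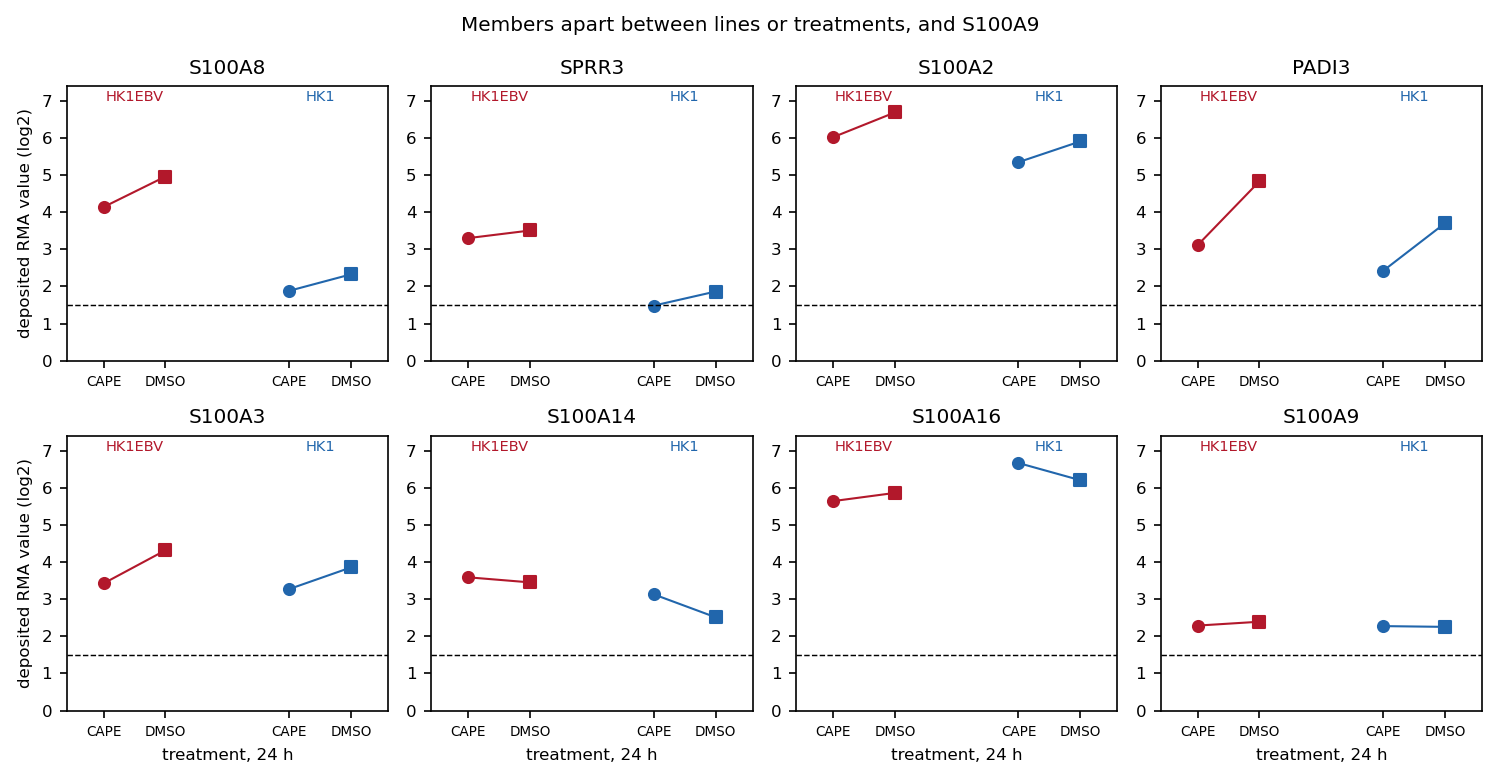
Deposited RMA values (log2) of 8 genes on the 4 arrays, with circles for CAPE and squares for DMSO, HK1EBV left and HK1 right in each panel, lines joining the arrays of a cell line and the background bound dashed. S100A8 and SPRR3 stand apart by line, PADI3 and S100A3 by treatment within each line, and S100A9 is level between 2.25 and 2.39.

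S100A9, the partner of S100A8, stood at 2.29 with CAPE and 2.39 with DMSO in HK1EBV, and 2.28 with CAPE and 2.25 with DMSO in HK1. The difference of 0.076 ± 0.11 (SE from limma, n = 2 treatments) was small beside that of S100A8 (limma adjusted p = 0.752). S100A12, another gene of this myeloid group, was near background. S100A8 is abundant in neutrophils and monocytes, so leukocyte markers are given beside it. Of 10 measured, 4 were above the bound, CD68, CD14, CSF1R and ELANE, while PTPRC, ITGAM, MPO, CSF3R, CD3E and MS4A1 were near background. CD68, which many epithelial lines express, had a mean line difference of 0.56 and a mean CAPE difference of 1.19, neither called (limma adjusted p of 0.0718 and 0.0672). Without the genes of zero residual both were called (limma adjusted p of 0.018 and 7.51e-04). CD68 was thus higher in HK1EBV, as S100A8 was, and higher with CAPE, where S100A8 was lower, and its part in the result was not tested. The mean over the markers was 2.24 with CAPE and 2.10 with DMSO in HK1EBV, and 2.23 and 2.07 in HK1.

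Other S100A genes differed less between the lines. S100A14, of an epithelial S100 protein, stood at 3.59 with CAPE and 3.45 with DMSO in HK1EBV, and 3.13 with CAPE and 2.51 with DMSO in HK1, with HK1EBV above HK1 by 0.46 with CAPE and 0.94 with DMSO. It did not pass (limma adjusted p = 0.0857), but did without the genes of zero residual (limma adjusted p = 0.0121, range over alternatives 0.0121 to 0.357). S100A16 was the 1 gene above the bound with a 2-fold lower value in HK1EBV, and only with CAPE. With CAPE 2 genes of the set were 2-fold higher in HK1EBV, S100A8 and SPRR3, and 1 lower, against 0.928% and 1.13% of all genes. SPRR3 is counted in the values as deposited, although its HK1 value with CAPE was just below the bound. With DMSO 3 were higher, PADI3 being added, and 0 lower, against 0.895% and 0.974%. S100A16 stood at 5.64 with CAPE and 5.86 with DMSO in HK1EBV, and 6.67 with CAPE and 6.21 with DMSO in HK1, a difference of -1.03 with CAPE and -0.34 with DMSO. The mean of -0.68 ± 0.19 (SE from limma, n = 2 treatments) did not pass (limma adjusted p = 0.127, range over alternatives 0.0225 to 0.321).

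The S100A10 and S100A11 genes differed little. S100A10, of the annexin A2 partner, stood at 9.74 with CAPE and 9.84 with DMSO in HK1EBV, and 9.90 with CAPE and 9.73 with DMSO in HK1. S100A11, of the annexin A1 partner and a transglutaminase substrate, stood at 8.94 with CAPE and 9.14 with DMSO in HK1EBV, and 9.0 with CAPE and 8.72 with DMSO in HK1. Their line differences were at most 0.42, that of S100A11 with DMSO. S100A13, of a protein in the release of fibroblast growth factor, stood at 3.89 with CAPE and 3.90 with DMSO in HK1EBV, and 3.78 with CAPE and 3.86 with DMSO in HK1. S100A4, known from cell motility, stood at 1.79 with CAPE and 1.84 with DMSO in HK1EBV, and 1.64 with CAPE and 1.55 with DMSO in HK1. S100A5 stood at 1.87 with CAPE and 1.63 with DMSO in HK1EBV, and 2.08 with CAPE and 1.95 with DMSO in HK1. Among these 3 genes S100A5 had the widest line difference, -0.32 with DMSO. S100A7, of the antimicrobial protein psoriasin, was barely above the bound, at 1.63 with CAPE and 1.46 with DMSO in HK1EBV, and 1.34 with CAPE and 1.45 with DMSO in HK1.

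Among SPRR genes, those next to SPRR3 on chromosome 1 had smaller line differences. SPRR1A, of an envelope precursor also called cornifin A, stood at 3.24 with CAPE and 3.21 with DMSO in HK1EBV, and 3.02 with CAPE and 3.16 with DMSO in HK1. SPRR1B, its close relative, stood at 2.64 with CAPE and 3.14 with DMSO in HK1EBV, and 2.41 with CAPE and 2.70 with DMSO in HK1. The lines overlapped for SPRR1B and lay close together for SPRR1A. SPRR2G stood at 2.90 with CAPE and 2.88 with DMSO in HK1EBV, and 2.45 with CAPE and 2.62 with DMSO in HK1, and its other probe set gave differences of 0.21 with CAPE and 0.13 with DMSO. SPRR2F stood at 3.53 with CAPE and 3.77 with DMSO in HK1EBV, and 3.67 with CAPE and 3.82 with DMSO in HK1. SPRR4 stood at 1.92 with CAPE and 2.0 with DMSO in HK1EBV, and 2.08 with CAPE and 2.15 with DMSO in HK1. None (0) of these 5 was called between the lines, against 1.32% higher and 1.58% lower among all genes. The lowest limma adjusted p among them was 0.174, for SPRR2G.

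Of the crosslinking and citrullinating enzymes, PADI3 was higher in HK1EBV by 0.69 with CAPE and 1.13 with DMSO, with a mean of 0.91 ± 0.15 (SE from limma, n = 2 treatments), or 1.88-fold. Its groups overlapped, since HK1EBV with CAPE was below HK1 with DMSO. It did not pass (limma adjusted p = 0.0533, range over alternatives 0.00283 to 0.675). TGM1, of the membrane-bound transglutaminase of keratinocytes, stood at 3.02 with CAPE and 3.16 with DMSO in HK1EBV, and 2.73 with CAPE and 2.60 with DMSO in HK1. Both HK1EBV arrays were above both HK1 arrays, without a call (limma adjusted p = 0.143). PADI2, of a widely expressed deiminase, stood at 1.90 with CAPE and 1.92 with DMSO in HK1EBV, and 2.10 with CAPE and 1.67 with DMSO in HK1. TGM5, of an epidermal transglutaminase, stood at 1.60 with CAPE and 1.39 with DMSO in HK1EBV, and 1.65 with CAPE and 1.37 with DMSO in HK1. These last 2 overlapped between the lines.

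Among the remaining envelope and filament-associated genes, DMKN, of the secreted protein dermokine, stood at 6.46 with CAPE and 6.47 with DMSO in HK1EBV, and 6.08 with CAPE and 6.24 with DMSO in HK1. CNFN, of the envelope protein cornifelin, stood at 2.57 with CAPE and 2.73 with DMSO in HK1EBV, and 2.31 with CAPE and 2.49 with DMSO in HK1. FLG, of filaggrin, stood at 2.46 with CAPE and 2.49 with DMSO in HK1EBV, and 2.44 with CAPE and 1.94 with DMSO in HK1. CRNN, of the esophageal protein cornulin, stood at 1.90 with CAPE and 2.01 with DMSO in HK1EBV, and 1.69 with CAPE and 1.62 with DMSO in HK1. In these 4 genes both HK1EBV arrays were above both HK1 arrays, but by means of only 0.25 to 0.30, and limma made no call (adjusted p 0.209 to 0.372). TCHH, of trichohyalin, stood at 1.56 with CAPE and 1.61 with DMSO in HK1EBV, and 1.65 with CAPE and 1.44 with DMSO in HK1. SBSN, of suprabasin, stood at 1.46 with CAPE and 1.48 with DMSO in HK1EBV, and 1.70 with CAPE and 1.25 with DMSO in HK1. Both lay about the bound and overlapped.

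The LCE genes encode proteins added late to the envelope in epidermis. Their levels ran up to 4.48, and line differences of the 15 tested from -0.65 to 0.31. Among those above the bound, LCE2A had the lowest mean line difference, -0.40, at 3.09 with CAPE and 3.21 with DMSO in HK1EBV, and 3.74 with CAPE and 3.36 with DMSO in HK1. LCE3A stood at 2.68 with CAPE and 3.18 with DMSO in HK1EBV, and 3.25 with CAPE and 2.97 with DMSO in HK1. LCE1E stood at 3.24 with CAPE and 3.40 with DMSO in HK1EBV, and 3.66 with CAPE and 3.17 with DMSO in HK1. In these 3 the HK1 CAPE array was the highest. LCE1D stood at 4.48 with CAPE and 4.13 with DMSO in HK1EBV, and 4.33 with CAPE and 4.36 with DMSO in HK1. LCE3B stood at 3.78 with CAPE and 3.91 with DMSO in HK1EBV, and 3.78 with CAPE and 4.01 with DMSO in HK1. LCE1F stood at 3.63 with CAPE and 3.62 with DMSO in HK1EBV, and 3.74 with CAPE and 3.51 with DMSO in HK1. These 3 overlapped between the lines. LCE1A stood at 3.31 with CAPE and 3.08 with DMSO in HK1EBV, and 3.34 with CAPE and 3.24 with DMSO in HK1. LCE5A stood at 2.08 with CAPE and 2.10 with DMSO in HK1EBV, and 2.19 with CAPE and 2.11 with DMSO in HK1. LCE2B stood at 1.62 with CAPE and 2.08 with DMSO in HK1EBV, and 2.11 with CAPE and 2.08 with DMSO in HK1. Of these 3 only LCE2B had an array apart, HK1EBV with CAPE. LCE1C stood at 2.01 with CAPE and 1.67 with DMSO in HK1EBV, and 1.70 with CAPE and 1.46 with DMSO in HK1. LCE3E stood at 1.64 with CAPE and 1.80 with DMSO in HK1EBV, and 1.69 with CAPE and 1.94 with DMSO in HK1. LCE3D stood at 1.58 with CAPE and 1.74 with DMSO in HK1EBV, and 1.51 with CAPE and 1.86 with DMSO in HK1. LCE1C was lowest in HK1 with DMSO, where the other 2 were highest. LCE2D stood at 1.46 with CAPE and 1.68 with DMSO in HK1EBV, and 1.71 with CAPE and 1.86 with DMSO in HK1. LCE4A stood at 1.47 with CAPE and 1.37 with DMSO in HK1EBV, and 1.52 with CAPE and 1.51 with DMSO in HK1. Of the 15 LCE genes tested 0 were called between the lines, against 1.32% higher and 1.58% lower among all genes. LCE2A had the lowest adjusted p of limma, 0.223.

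The next comparison asked which of these genes differed after CAPE in both lines. PADI3, of the deiminase that acts on trichohyalin and S100A3 in human hair follicles, was lower with CAPE by more than 2-fold in each line. S100A3, S100A2 and S100A8 were lower by smaller amounts. None (0) of the 50 genes tested passed in limma with Benjamini-Hochberg adjustment, where 0% of all genes were called higher and 0.00658% lower. At an unadjusted p under 0.05, 2 genes were higher and 6 lower, against 10.2% and 9.31% of all genes.

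PADI3 stood at 3.11 with CAPE and 4.84 with DMSO in HK1EBV, and 2.42 with CAPE and 3.70 with DMSO in HK1. Both CAPE arrays were below both DMSO arrays. The CAPE difference was -1.72 in HK1EBV and -1.28 in HK1, with a mean of -1.50 ± 0.15 (SE from limma, n = 2 lines), or 2.83-fold lower (limma adjusted p = 0.0672, range over alternatives 4.77e-04 to 0.522). PADI3 was the 1 gene of 50 at least 2-fold lower in HK1EBV, against 0.533% of all genes, and also in HK1, against 0.684%. The share of all genes lower by 2-fold in both lines at once was not counted. In the set 0 genes were 2-fold higher, against 0.691% in HK1EBV and 0.671% in HK1. The related genes PADI1, PADI2 and PADI4 had mean CAPE differences of 0.048, 0.21 and -0.20.

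S100A3, a cysteine-rich protein of the hair cuticle, stood at 3.43 with CAPE and 4.32 with DMSO in HK1EBV, and 3.27 with CAPE and 3.85 with DMSO in HK1. Its CAPE arrays were both below its DMSO arrays, with differences of -0.89 in HK1EBV and -0.58 in HK1. Its mean CAPE difference was -0.74 ± 0.13 (SE from limma, n = 2 lines) (limma adjusted p = 0.0896, range over alternatives 0.01 to 0.505). S100A2, whose values are given above, differed by -0.67 in HK1EBV and -0.56 in HK1, a mean of -0.61 ± 0.11 (SE from limma, n = 2 lines) (limma adjusted p = 0.0946, range over alternatives 0.0176 to 0.727). S100A8 differed by -0.82 in HK1EBV and -0.44 in HK1, a mean of -0.63 ± 0.14 (SE from limma, n = 2 lines) (limma adjusted p = 0.115, range over alternatives 0.0213 to 0.944). For S100A2 and S100A8 the lines were farther apart than the treatments, and CAPE and DMSO arrays overlapped. In S100A8 the HK1EBV CAPE array stayed above both HK1 arrays. Without the 57 genes of zero residual S100A3, S100A2, S100A8 and PADI3 fell with CAPE, and 0 genes of the set rose, against 4.14% lower and 4.07% higher among all genes (limma adjusted p of 4.77e-04 for PADI3, 0.01 for S100A3, 0.0176 for S100A2 and 0.0213 for S100A8).

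**Figure D3:**
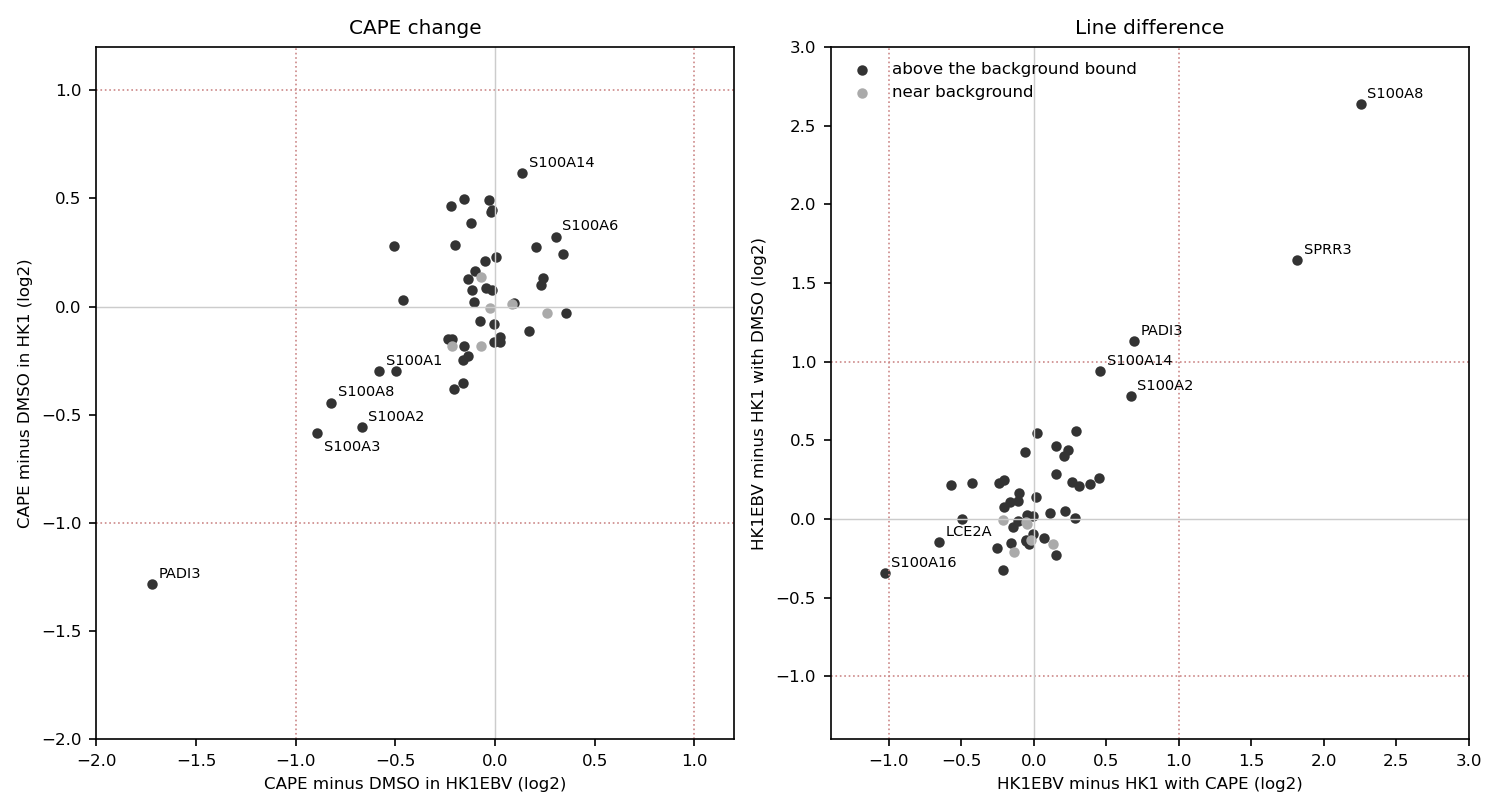
Differences (log2) of the 50 genes tested. Left, CAPE minus DMSO in HK1EBV on the horizontal and in HK1 on the vertical axis, and right, HK1EBV minus HK1 with CAPE on the horizontal and with DMSO on the vertical axis, with dotted lines at 2-fold and genes near background in grey. PADI3 is the 1 gene past 2-fold lower on both axes at left, and S100A8 and SPRR3 are past 2-fold higher on both axes at right.

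Some smaller differences ran the same way in both lines. S100A6, of calcyclin, stood at 6.21 with CAPE and 5.91 with DMSO in HK1EBV, and 6.21 with CAPE and 5.89 with DMSO in HK1. Both CAPE arrays were above both DMSO arrays by a similar amount, 0.30 in HK1EBV and 0.32 in HK1 (limma adjusted p = 0.218). S100A1, of a calcium sensor best known from muscle, stood at 1.79 with CAPE and 2.37 with DMSO in HK1EBV, and 1.99 with CAPE and 2.29 with DMSO in HK1, a CAPE difference of -0.58 in HK1EBV and -0.30 in HK1 (limma adjusted p = 0.166). SPRR1B differed by -0.50 in HK1EBV and -0.30 in HK1 (limma adjusted p = 0.174). SPRR3 differed by -0.20 in HK1EBV and -0.38 in HK1, less than its line difference. Of the 6 SPRR genes tested, 4 were lower with CAPE in each line and 0 higher in each, where 29.5% of all genes were lower in each and 32.1% higher. In the whole set 19 of 50 genes (38%) were lower in each line and 9 (18%) higher. Over the set, both CAPE arrays lay above both DMSO arrays for 5 genes (10%) and below for 10 (20%), against 18.4% and 17.7% of all genes. The median CAPE difference was -0.072 in HK1EBV and 0.013 in HK1, beside -0.0032 and 0.018 over all genes.

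The CAPE differences were also set against each other between the lines, without a test. None (0) of the 50 genes had CAPE differences 2-fold apart, against 0.77% of all genes. The size of this gap had a median of 0.19 in the set and 0.19 over all genes. S100A16 differed with CAPE by -0.22 in HK1EBV and 0.46 in HK1. S100A11 differed by -0.20 in HK1EBV and 0.28 in HK1, and LCE3A by -0.51 in HK1EBV and 0.28 in HK1. In all 3 the directions were opposite. PADI3, S100A3 and S100A8 were lower in both lines, by more in HK1EBV.

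Of the 61 genes 51 lie in the stretch from S100A10 to S100A1 on chromosome 1, and 37 of these were above the bound. The genes called between the lines were scattered along it and not neighbours. SPRR3 lies between SPRR1A and SPRR1B, whose mean line differences were 0.13 and 0.33. S100A8 lies between S100A12 and S100A7A, both near background. S100A2 has S100A3 and S100A16 beside it, with 0.31 and -0.68. For CAPE, S100A3 and S100A2 are neighbours that were both lower, while S100A4 and S100A16 on their other sides had mean CAPE differences of 0.019 and 0.12.

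**Figure D4:**
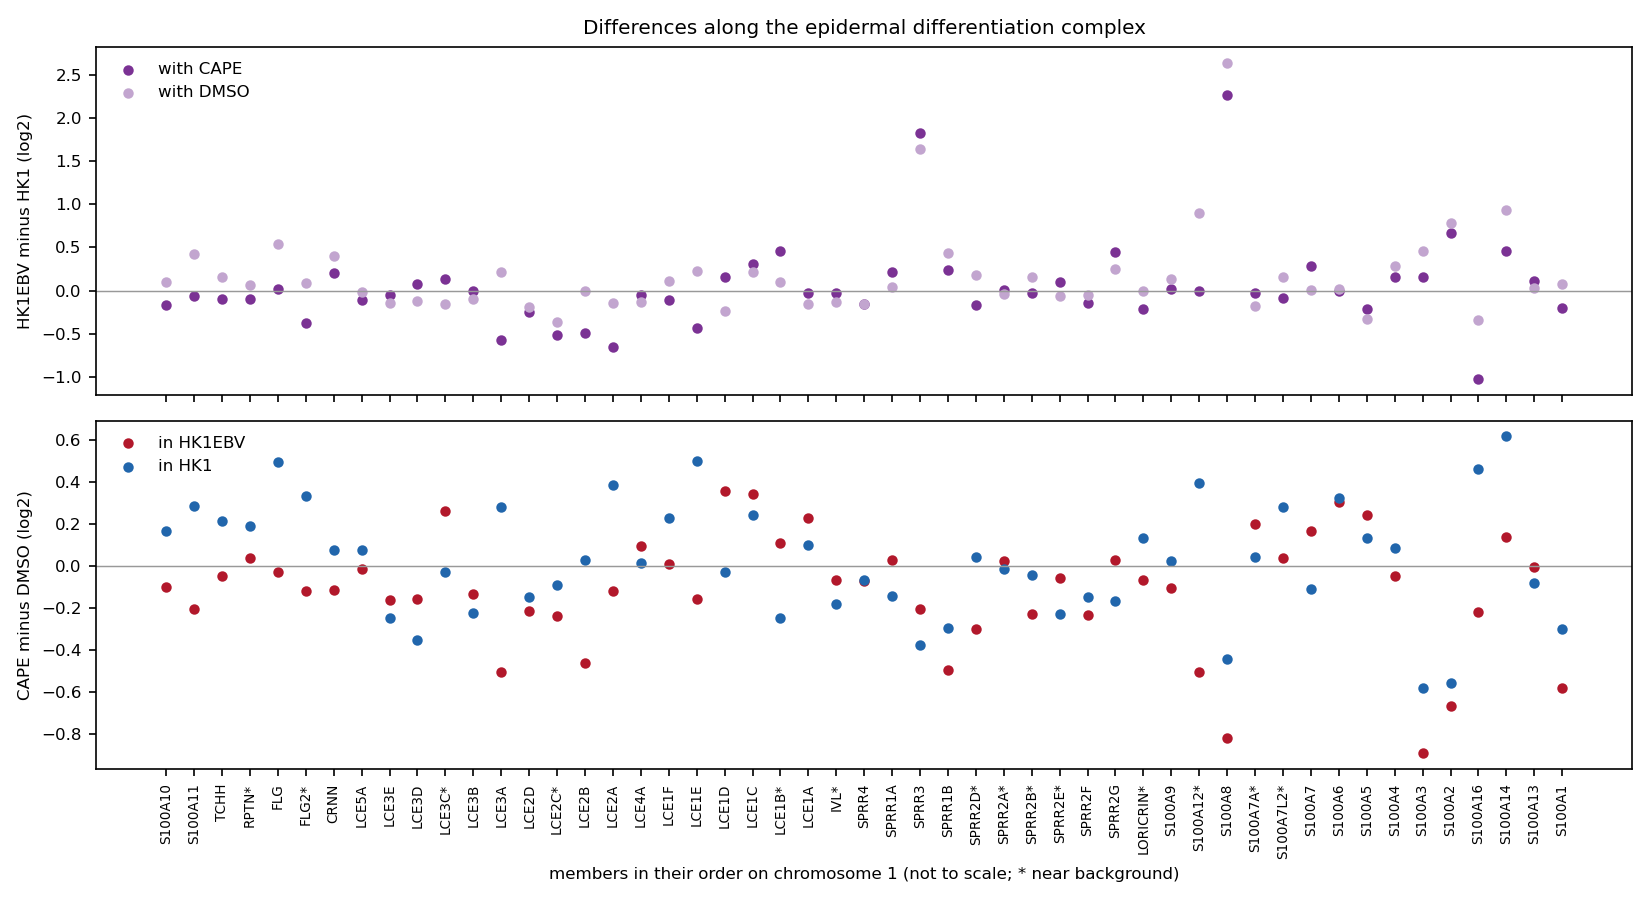
Differences (log2) of the 51 genes from S100A10 to S100A1 in their order on chromosome 1, not to scale, with HK1EBV minus HK1 above and CAPE minus DMSO below, and 1 point for each treatment or line. The high line differences of SPRR3 and S100A8 stand alone among their neighbours, and the low CAPE differences of S100A3 and S100A2 lie side by side.

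Other genes of squamous differentiation were taken as lists, also chosen with earlier results known, and tested in the same limma fit. Of 18 tested genes of the envelope scaffold and the rest of the differentiation complex, 0 rose and 1 fell in HK1EBV, where 1.32% of all genes tested rose and 1.58% fell. That was SLPI, of a secreted protease inhibitor, at 4.33 with CAPE and 3.18 with DMSO in HK1EBV, and 6.26 with CAPE and 5.04 with DMSO in HK1 (limma adjusted p = 0.0164). LYPD3, ECM1 and PPL, the periplakin gene, had mean line differences of 0.82, -0.71 and -0.65 without a call. For CAPE 0 were called, against 0% of all genes higher and 0.00658% lower. SLPI, ECM1, LYPD3 and the cystatin gene CSTA had mean CAPE differences of 1.18, 0.80, 0.64 and 0.54. Without the genes of zero residual, 1 rose and 4 fell in HK1EBV, against 6.26% and 5.34% of all genes, and 4 rose and 1 fell with CAPE, against 4.07% and 4.14%.

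Of 15 squamous keratin genes 2 rose in HK1EBV and 0 fell, against 1.32% and 1.58% of all genes. KRT15, of a basal keratin, stood at 7.94 with CAPE and 8.96 with DMSO in HK1EBV, and 7.03 with CAPE and 7.52 with DMSO in HK1 (limma adjusted p = 0.0459). KRT16, of a stress keratin, stood at 4.75 with CAPE and 4.23 with DMSO in HK1EBV, and 3.73 with CAPE and 3.28 with DMSO in HK1 (limma adjusted p = 0.0364). KRT13, of the keratin of moist squamous epithelium, stood at 4.68 with CAPE and 6.28 with DMSO in HK1EBV, and 3.88 with CAPE and 4.01 with DMSO in HK1 and was not called (limma adjusted p = 0.091). KRT5 had a mean line difference of 0.63. For CAPE 0 were called, against 0% of all genes higher and 0.00658% lower. KRT13, KRT15, KRT16 and KRT76 had mean CAPE differences of -0.87, -0.76, 0.48 and -0.34. Without the genes of zero residual, 5 rose and 0 fell in HK1EBV, against 6.26% and 5.34% of all genes, and 1 rose and 1 fell with CAPE, against 4.07% and 4.14%.

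Of 31 regulators of squamous differentiation, 1 rose and 2 fell in HK1EBV, against 1.32% and 1.58% of all genes. For CAPE 0 were called, against 0% of all genes higher and 0.00658% lower. SOX2, of a stem cell factor of squamous epithelium, stood at 4.54 with CAPE and 6.10 with DMSO in HK1EBV, and 3.32 with CAPE and 4.20 with DMSO in HK1 (limma adjusted p = 0.0406). The AP-1 subunit genes JUN and FOSL1 fell, with mean line differences of -1.08 and -0.94 (limma adjusted p of 0.0363 and 0.0425). VDR, of the vitamin D receptor, had a mean line difference of 0.67 without a call. With CAPE, SOX2, FOSL1, PRDM1 and CEBPB had mean CAPE differences of -1.21, -0.72, 0.68 and 0.66. Without the genes of zero residual, 3 rose and 5 fell in HK1EBV, against 6.26% and 5.34% of all genes, and 5 rose and 3 fell with CAPE, against 4.07% and 4.14%.

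Of 12 genes tested in a list of barrier lipid genes, to which the membrane protein gene TMEM45A was added, 1 rose and 0 fell in HK1EBV. The shares of all genes were 1.32% and 1.58%. The gene that rose was the ceramide synthase gene CERS3, higher by a mean of 2.70 ± 0.15 (SE from limma, n = 2 treatments) (limma adjusted p = 0.0164). TMEM45A, ABCA12 and UGCG had mean line differences of 0.40, 0.34 and 0.32. That of TMEM45A changed direction between the treatments, with -0.19 with CAPE and 0.997 with DMSO. For CAPE 0 were called, against 0% of all genes higher and 0.00658% lower. TMEM45A, the acid sphingomyelinase gene SMPD1, ABCA12 and ALOX12B had mean CAPE differences of 1.88, 0.85, 0.53 and 0.45. That of ALOX12B came from HK1EBV, with 0.875 there and 0.020 in HK1. Without the genes of zero residual 3 of the 12, TMEM45A, SMPD1 and ABCA12, rose with CAPE and 0 fell, against 4.07% and 4.14% of all genes. In that fit 1 rose and 0 fell in HK1EBV, against 6.26% and 5.34%. Of 14 proteases and inhibitors of cornification 0 rose and 1 fell in HK1EBV, against 1.32% and 1.58% of all genes, and without the genes of zero residual 1 rose and 2 fell, against 6.26% and 5.34%. The gene that fell in the fit of all genes was BLMH, of bleomycin hydrolase, which trims filaggrin peptides, at 2.51 with CAPE and 2.38 with DMSO in HK1EBV, and 4.07 with CAPE and 4.27 with DMSO in HK1 (limma adjusted p = 0.0222). KLK10, CTSV and CST6 had mean line differences of -1.57, 1.13 and -0.73, and KLK6, CTSD, CTSV and KLK10 mean CAPE differences of -0.62, 0.48, 0.39 and -0.21. Among the latter only CTSD ran the same way in both lines, by 0.37 in HK1EBV and 0.59 in HK1. KLK6, CTSV and KLK10 differed with CAPE by -1.27, -0.11 and -0.75 in HK1EBV, and by 0.019, 0.89 and 0.33 in HK1. Of 10 other S100 genes, partners and receptors 0 were called in either comparison. Among all genes 1.32% rose and 1.58% fell between the lines, and 0% rose and 0.00658% fell with CAPE. Mean line differences were 0.37 for ANXA1 and -0.19 for ANXA6, and mean CAPE differences -0.36 for ANXA6 and -0.31 for ANXA11. Of 4 other transglutaminase and deiminase genes tested 0 were called, against the same shares, with mean CAPE differences of -0.088 for TGM2 and 0.086 for TGM6.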

How the data were processed

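RNA of the 2 lines was labelled and put on single-colour arrays, per the labels' protocols. The deposited values were made by RMA, per the submitters' processing notes, and are read here as log2. The sources used here do not give the RMA version, the log base or any offset, so all folds rest on that reading. Of 25800 probe sets, 18612 carried a single symbol in the platform's annotation table, 954 carried several and 6234 carried no symbol, and 18583 matched a RefSeq gene table (GRCh38.p14), used for names and gene order. The brightest probe set was taken for a gene, and a gene entered the test if it averaged at least 0.997, which is the 25th percentile over probe sets. That kept 15194 genes, and 50 of the 61 described, 6 of them near background.

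Tests used limma 3.58.1 in R 4.3.3 on the 4 arrays together, the model holding line and treatment, two-sided, with Benjamini-Hochberg adjustment over all genes tested and a threshold of 0.05. Tested on simulated data of the same size, the fit recovered the sizes of known differences. With 1 residual degree of freedom limma's prior was estimated unstably there, and the share of false calls was on average above the nominal level, more so with noise as in the fit without genes of zero residual. The prior degrees of freedom were 3.90 in the fit reported and 9.89 without those genes, so adjusted p-values, those without these genes above all, may be too small. Genes of zero residual were those whose CAPE differences in the lines were equal within 1e-08, the rounding of the values. Differences within 1 line or 1 treatment have no test and are counted at 2-fold. Genes above the background bound are named with all values, the others by range (apart from IVL and LORICRIN, given in full as envelope proteins after their values were seen), and of each related list those with the largest mean differences. The members and lists were chosen with earlier results of these data known. The number of arrays limits the precision, and no array could be left out of a test, since 3 arrays leave no residual degree of freedom.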

Additional observations from a re-analysis of the deposited data

Results flagged for a closer look

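S100A16, S100A11 and LCE3A were singled out because their CAPE differences ran in opposite directions in the lines and were, in each line, larger in size than 0.19, the median gap between the lines over all genes. LCE1E, LCE2A, FLG and LCE2B also ran in opposite directions, with wider gaps than S100A11. For LCE1E, LCE2A and FLG the differences in HK1EBV, -0.16, -0.12 and -0.028, were below that size. For LCE2B the difference in HK1, 0.028, was below it. S100A12 had the widest gap of the set, with -0.50 in HK1EBV and 0.39 in HK1, but was near background and did not enter the test. S100A16 differed with CAPE by -0.22 in HK1EBV and 0.46 in HK1, a difference of -0.68. S100A11 differed with CAPE by -0.20 in HK1EBV and 0.28 in HK1, a difference of -0.49. LCE3A differed with CAPE by -0.51 in HK1EBV and 0.28 in HK1, a difference of -0.79. With 1 array a group these differences were not tested.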

How the results depend on the processing

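For CAPE, 0 genes of the set were called with the settings of the report (1 gene in all), without the filter, with probe sets averaged per gene, with a trended prior and with no term for cell line. The count was 4 with a filter at the 50th percentile, with arrays shifted to one median, with quantile normalization and without the genes of zero residual. It was 3 at an adjusted p of 0.1, and 1 with a filter at the 95th percentile of olfactory receptors and with a robust prior. Over all genes these settings gave from 0 to 1243 calls. For the lines, where 3 genes of the set and 440 in all were called, the set had 0 without the filter and with no term for treatment, 6 with shifted arrays, with quantile normalization and without the genes of zero residual (1526, 1324 and 1756 in all), and 5 with the filter at the 50th percentile and at an adjusted p of 0.1. The cause of these shifts was not tested. Fewer genes enter the fit with the stricter filters. The median line difference of the set was 0.13 with the filter at the 50th percentile, against -0.0097. At 1.5-fold, 4 genes differed with CAPE in HK1EBV and 2 in HK1, and 6 between the lines with CAPE and 5 with DMSO, against 1, 1, 3 and 3 at 2-fold. Over all 15194 genes 1145, 1089, 1539 and 1271 differed by 1.5-fold, so the counts in the set of 50 stand near that background. With the median of all probe sets as the bound 33 genes were near background. Line differences near 0 changed sign for SBSN, to 0.011 with shifted arrays and 0.0016 with quantile normalization, for S100A6, to -0.041 with quantile normalization, and for TGM5, to 0.0039 with shifted arrays. Of the single-gene values under the alternatives, 402 for CAPE and 396 for the lines kept their call and direction, 18 and 14 newly passed, and 0 and 6 no longer passed. Those 6 were S100A8, SPRR3 and S100A2 without the filter and with no term for treatment. The CAPE test as reported already compares the arrays within each line, and the fit with no term for cell line, given above, is its unpaired form. No replicate block could be fitted, since each group has 1 array.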
